A study of Mus musculus with 6 samples.

Results

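The genes for 10 proteoglycans, linking proteins and receptors of the vessel basement membrane were followed in choroid endothelial cells (ECs) at 2 ages. They are Hspg2, Agrn, Col18a1, Col15a1, Nid1, Sparc, Sparcl1, Fn1, Bcam and Dag1, chosen by name as components other than the laminins and the type IV collagens. All 10 were found among the 22026 gene symbols measured, and all 10 were among the 12481 genes tested between ages. The cells came from mice at postnatal day 5 (P5) and postnatal day 30 (P30). The methods describe the P30 mice as 129/B6 of both sexes and name no strain or sex for the P5 mice. Tissue of 7 animals was pooled in each isolation, and there were 3 isolations per age. The RPE/choroid (RPE, retinal pigment epithelium) was dissected from the sclera and digested, and ECs marked in the living animal by an injected antibody to VE-Cadherin were sorted by flow cytometry. Expression is given as FPKM, sequenced fragments scaled to transcript length and, by the authors, to the upper quartile of each isolation. Levels of different genes can thus be set beside each other.

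A basement membrane is a thin sheet of matrix in which a laminin network and a type IV collagen network are tied together by smaller components. Perlecan (Hspg2) and agrin (Agrn) are large proteoglycans that carry heparan sulfate chains, nidogen-1 (Nid1) bridges laminin and type IV collagen, and collagens XVIII (Col18a1) and XV (Col15a1) are collagen and proteoglycan at once and end in related domains, that of collagen XVIII being the source of endostatin. SPARC and SPARC-like 1 (Sparcl1) are secreted glycoproteins that bind or accompany collagen, fibronectin (Fn1) is an adhesive glycoprotein typical of growing vessels, and BCAM and dystroglycan (Dag1) are laminin receptors at the cell surface. In the choroid, the basement membrane of the fenestrated capillaries forms the outermost layer of Bruch's membrane, on which the RPE sits.

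The levels per isolation moved mainly downward between P5 and P30. Col18a1, Col15a1 and Agrn were lower at P30 by 4.22-, 2.49- and 2.12-fold in mean FPKM, and Bcam was higher at P30 by 2.28-fold. Hspg2 and Nid1 were lower at P30 by 1.58- and 1.62-fold. Fn1 was lower in every P30 isolation but did not pass the test, and Sparc, Sparcl1 and Dag1 overlapped between ages. Passing the test means here an adjusted p under 0.01 (Benjamini-Hochberg over the 12481 genes tested) from limma on log2(FPKM + 1). A gene was called when it also differed by at least 2-fold in mean FPKM + 1. Of the 10 genes, 3 were called higher at P5, where 5.82% of all genes tested were, and 1 was called higher at P30, where 5.89% were. Without the limit on the fold, 5 of 10 passed as higher at P5 (10.7% of all genes tested) and 1 as higher at P30 (8.51%). Every P5 isolation lay above every P30 isolation for 6 of the 10 genes, which 33.0% of all genes tested also did, and the reverse held for 1 gene (22.0%). The median difference in log2(FPKM + 1), P30 minus P5, was -0.68 over the 10 genes and -0.10 over all genes tested.

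**Figure D1:**
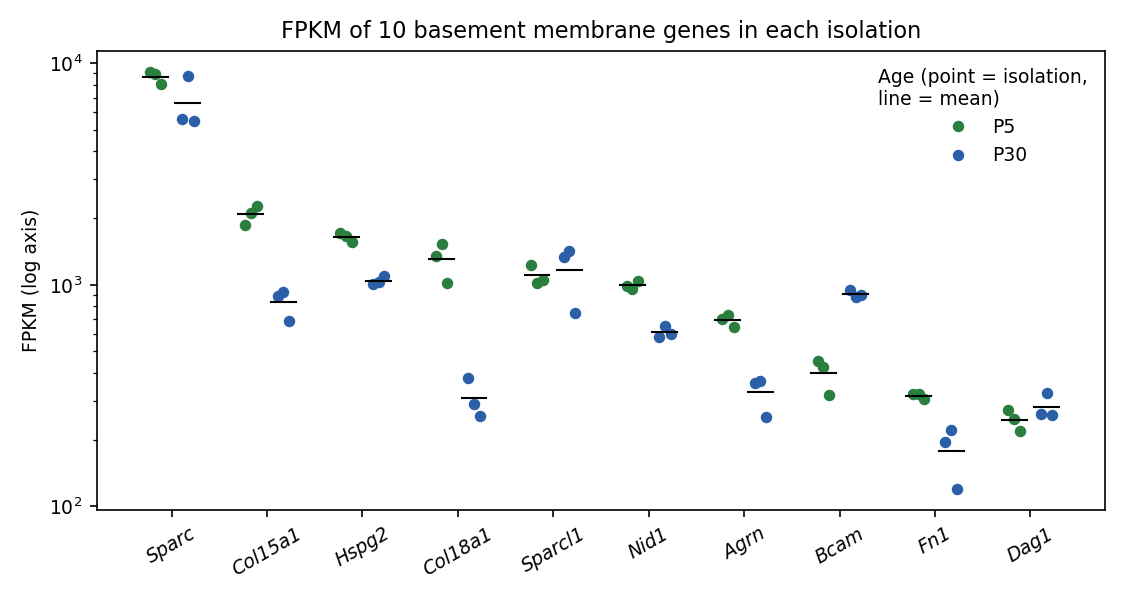
FPKM of the 10 genes in each isolation on a log axis, with P5 in green, P30 in blue and the mean of 3 isolations as a line. The ages do not overlap for Col15a1, Hspg2, Col18a1, Nid1, Agrn and Fn1, which are lower at P30, nor for Bcam, which is higher, and they overlap for Sparc, Sparcl1 and Dag1.

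The sorted cells carried the markers of ECs at both ages. All 10 EC markers examined were above 0 in every isolation, and their summed FPKM was 20236 to 20831 at P5 and 28672 to 34368 at P30. Plvap moved the most of them in FPKM, from 4692 ± 140 at P5 to 11590 ± 2515 at P30. Plvap and Flt1 (log2 differences 1.28 and 1.19) were called higher at P30, so the sum does not measure EC content alone. Cdh5 (VE-Cadherin), the sorting antigen, passed the test as lower at P30 (10.7% of all genes tested did), and 4 of the 10 markers passed as higher at P30 (8.51% did). Marker genes of other cells were also detected. The summed FPKM of 8 RPE markers was 81.3 to 176 at P5 and 510 to 3968 at P30 (5 of 7 tested called higher at P30, with Rpe65 at 0 in P5 replicates 2 and 3). The corresponding range was 468 to 1712 and 1841 to 6228 for 7 pericyte markers (1 of 7 called, with Higd1b at 0 in P5 replicates 2 and 3). It was 85.4 to 175 and 311 to 1083 for 6 smooth muscle markers (2 of 5 tested called, with Cnn1 at 0 in P5 replicate 3). For 7 fibroblast markers it was 725 to 1193 and 1782 to 4490 (1 of 7 called, with Dpt at 0 in every P5 isolation). S100b, a gene of Schwann cells among others, was called higher at P30 (3.42 ± 0.771 FPKM at P5 and 25.5 ± 9.21 at P30). Photoreceptor markers summed to 15.8 to 27.6 at P5 and 59.0 to 441 at P30 (2 of 7 tested called, with Pde6g at 0 in the 3 P5 isolations and in P30 replicate 3, Pde6b in P5 replicates 1 and 2, and Sag, Prph2 and Nrl in P5 replicate 2). Melanocyte sums (92.2 to 436 and 117 to 1098, 0 of 5 called by limma, 1 higher at P30 at an unadjusted p under 0.05) and haematopoietic sums (789 to 1232 and 948 to 1813, 1 of 8 called) overlapped between ages. The haematopoietic markers did not move as one, since Ptprc (CD45, of leukocytes) was called lower at P30, from 27.1 ± 1.51 FPKM (SD, n = 3) to 7.82 ± 0.187, while the haemoglobin gene Hbb-b1 had a log2 difference of 2.19 (adjusted p = 0.035 from limma) and Csf1r, of macrophages, one of -1.57 (adjusted p = 0.041). The part of these cells in the differences given here was not tested. In sorted pools such as these, fewer cells of a type and less RNA per cell cannot be told apart.

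The DNA around the transcription starts of the 4 called genes is shown because these are the genes that passed both limits between ages. The windows are RefSeq's, from 250 bases before to 50 bases after a start, in the build GRCm38.p6 and read 5′ to 3′ on the strand of the gene. Capitals mark the GC box (GGGCGG or CCGCCC) and the CCAAT box (CCAAT or ATTGG). Neighbouring GC boxes can run together in one stretch of capitals.
Col18a1, upstream start, chr10:77166481-77166780 (-): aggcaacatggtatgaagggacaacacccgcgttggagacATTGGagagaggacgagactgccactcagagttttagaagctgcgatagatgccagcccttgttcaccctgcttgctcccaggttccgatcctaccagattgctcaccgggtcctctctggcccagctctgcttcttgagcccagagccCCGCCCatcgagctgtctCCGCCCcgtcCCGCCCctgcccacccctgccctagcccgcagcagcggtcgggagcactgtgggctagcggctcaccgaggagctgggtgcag
Col18a1, downstream start, chr10:77113656-77113955 (-): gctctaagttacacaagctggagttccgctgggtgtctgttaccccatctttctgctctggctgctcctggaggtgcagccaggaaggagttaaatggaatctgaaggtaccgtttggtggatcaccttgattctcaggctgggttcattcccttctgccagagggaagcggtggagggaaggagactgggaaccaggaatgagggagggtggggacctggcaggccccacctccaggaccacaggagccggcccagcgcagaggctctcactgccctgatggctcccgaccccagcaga
Col15a1, chr4:47207762-47208061 (+): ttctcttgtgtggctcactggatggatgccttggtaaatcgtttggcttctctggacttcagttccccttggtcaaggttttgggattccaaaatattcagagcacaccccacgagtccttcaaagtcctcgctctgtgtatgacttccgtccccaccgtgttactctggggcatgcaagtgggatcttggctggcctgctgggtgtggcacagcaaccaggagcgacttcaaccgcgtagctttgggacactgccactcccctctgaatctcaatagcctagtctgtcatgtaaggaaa
Agrn, upstream start, chr4:156197439-156197738 (-): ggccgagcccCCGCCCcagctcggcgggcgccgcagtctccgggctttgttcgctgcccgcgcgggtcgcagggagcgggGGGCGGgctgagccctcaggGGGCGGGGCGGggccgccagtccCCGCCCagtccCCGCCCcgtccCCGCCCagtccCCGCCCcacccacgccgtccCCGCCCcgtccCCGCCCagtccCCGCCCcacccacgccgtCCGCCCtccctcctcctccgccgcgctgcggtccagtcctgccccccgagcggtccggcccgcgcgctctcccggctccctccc
Bcam, chr7:19770483-19770782 (-): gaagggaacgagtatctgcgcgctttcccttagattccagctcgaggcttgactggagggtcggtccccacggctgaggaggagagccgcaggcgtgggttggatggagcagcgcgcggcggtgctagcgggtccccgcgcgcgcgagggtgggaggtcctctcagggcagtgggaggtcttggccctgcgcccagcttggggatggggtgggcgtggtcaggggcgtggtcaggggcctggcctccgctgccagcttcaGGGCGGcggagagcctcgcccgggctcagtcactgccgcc
The upstream window of Agrn held 12 GC boxes and was 83.3% G and C, against a median of 52.7% over all 32851 windows in the table. The upstream window of Col18a1 held 3 GC boxes and 1 CCAAT box, that of Bcam 1 GC box, and those of Col15a1 and of the downstream start of Col18a1 neither. Agrn has another listed start, whose window held 2 GC boxes. Of all windows, 35.7% held a GC box and 37.4% a CCAAT box. The letters TATAAA (13.6% of all windows), TGANTCA (7.81%) and CCGGAA (14.9%), searched on both strands, were in none of these windows. The deposited FPKM is a single value per gene, so the starts of Col18a1 and of Agrn were not separated. Windows were matched for 8 of the 10 genes.

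Col18a1 and Col15a1, the basement membrane collagens with heparan or chondroitin sulfate chains, fell the most. The FPKM of Col18a1 (chromosome 10, 76514923 to 76629293, minus strand, mm9) at P5 was 1346, 1535 and 1022, in the order of replicates 1 to 3 used throughout, and at P30 it was 378, 291 and 255. The lowest P5 value was 644 FPKM above the highest P30 value, and no gene of the 10 changed more (difference in log2(FPKM + 1), P30 minus P5, -2.07, SE 0.19, 95% interval -2.53 to -1.62, adjusted p = 0.00039 from limma). The FPKM of Col15a1 (chromosome 4, 47221033 to 47326039, plus strand) was 1858, 2106 and 2267 at P5 and 889, 928 and 685 at P30. The ages were separated by 929.7 FPKM, with a log2 difference of -1.32 (SE 0.14, adjusted p = 0.00071 from limma). Col15a1 was therefore above Col18a1 in every isolation of both ages. The ratio of Col18a1 to Col15a1 within an isolation was 0.724, 0.729 and 0.451 at P5 and 0.425, 0.314 and 0.372 at P30. The P5 ratios were the higher, but P5 replicate 3 came close to P30 replicate 1 (two-sided exact p of 0.1 by permutation of the log2 ratios, the lowest that 3 isolations against 3 can reach).

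The large heparan sulfate proteoglycans were both lower at P30, agrin by more than perlecan. The FPKM of Agrn (chromosome 4, 155539399 to 155571536, minus strand) was 701, 732 and 643 at P5 and 359, 368 and 253 at P30 (log2 difference -1.10, SE 0.16, 95% interval -1.46 to -0.73, adjusted p = 0.0021 from limma). No P30 isolation reached the P5 range, but the call lay near both limits. Without P5 replicate 1, 2 or 3 the adjusted p of Agrn was 0.0111, 0.0137 and 0.0107 from limma, without P30 replicate 3 the log2 difference was -0.92, and the gene was then not called. The FPKM of Hspg2 (chromosome 4, 137024634 to 137126545, plus strand) was 1715, 1655 and 1563 at P5 and 1005, 1027 and 1092 at P30. Its isolations were among the closest to each other of the 10 genes at both ages, with SDs of 76.6 and 45.0 FPKM, and its log2 difference was -0.66 (SE 0.09, adjusted p = 0.0019 from limma), which is under 2-fold. Without P5 replicate 1 or 2 its adjusted p was 0.0125 and 0.0165. The ratio of Hspg2 to Agrn was 2.45, 2.26 and 2.43 at P5 and 2.80, 2.79 and 4.32 at P30. Every P30 ratio was above every P5 ratio, and P30 replicate 3 stood apart from the other two (exact p of 0.1, again the lowest reachable).

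Nidogen-1 fell within a narrow range. The FPKM of Nid1 (chromosome 13, 13529869 to 13604542, plus strand) was 984, 961 and 1035 at P5 and 581, 652 and 602 at P30, with a gap of 309 FPKM between the ages. The log2 difference was -0.70 (SE 0.09, 95% interval -0.91 to -0.49, adjusted p = 0.0015 from limma), and without P5 replicate 2 the adjusted p was 0.0108. Nid2, which encodes the second nidogen, had an FPKM of 1221, 1185 and 1093 at P5 and 545, 453 and 619 at P30 and was called as lower at P30 (log2 difference -1.12, SE 0.13, adjusted p = 0.00089 from limma). The ratio of Nid1 to Nid2 was 0.806, 0.811 and 0.947 at P5 and 1.07, 1.44 and 0.972 at P30. Nid2 was thus above Nid1 in each P5 isolation and below it in P30 replicates 1 and 2, and the ages did not overlap (exact p of 0.1, again the lowest reachable). After adjustment over the 4 ratios compared, each p remained 0.1.

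**Figure D2:**
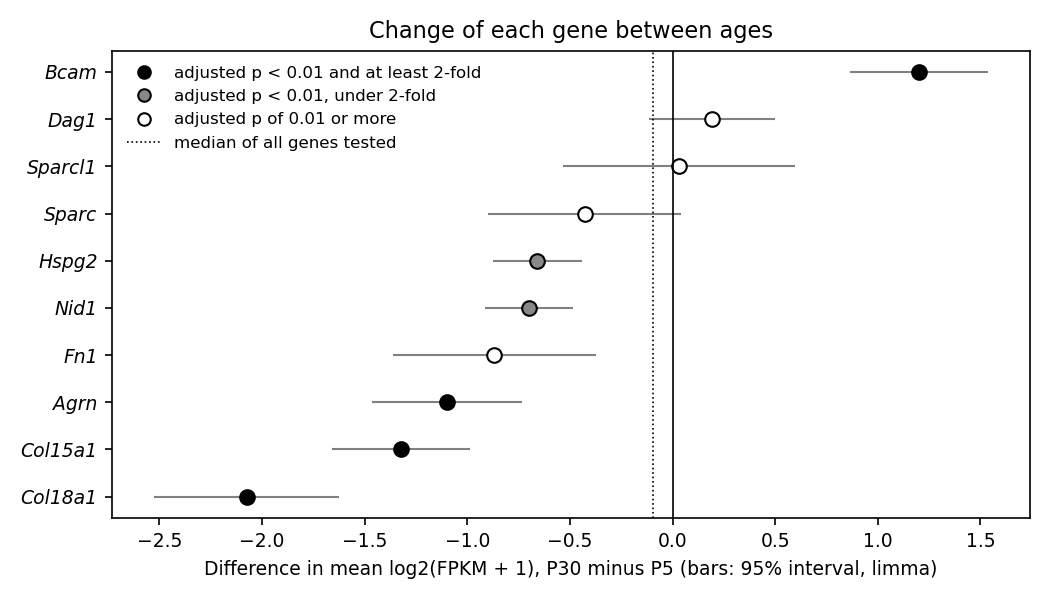
Difference in mean log2(FPKM + 1), P30 minus P5, for each of the 10 genes with the 95% interval from limma. Black points were called, grey points passed the adjusted p but were under 2-fold, and open points did not pass, and the dotted line is the median of all genes tested (-0.10). Col18a1 lies farthest to the left at -2.07 and Bcam farthest to the right at 1.20.

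The secreted glycoproteins varied the most between P30 isolations, with a coefficient of variation of 28.5% for Sparc, 31.6% for Sparcl1 and 29.2% for Fn1 against 20.6% or less for the other genes. Sparc (chromosome 11, 55208002 to 55233582, minus strand) had the highest FPKM of the 10 in every isolation, 9166, 8934 and 8025 at P5 and 5611, 8799.6 and 5463 at P30. P30 replicate 2 lay inside the P5 range and the other P30 isolations below it, and the difference did not pass the test (log2 difference -0.43, SE 0.20, 95% interval -0.90 to 0.04, adjusted p = 0.13 from limma). Without P30 replicate 2 it was -0.65, which did not pass either (adjusted p = 0.013 from limma). After quantile normalization Sparc was called, at a log2 difference of -1.11 (adjusted p = 0.0033 from limma). Sparcl1 (chromosome 5, 104508130 to 104543107, minus strand) had 1231, 1019.8 and 1056 at P5 and 1332, 1426 and 744 at P30. Its P30 isolations lay on both sides of the P5 range (log2 difference 0.03, SE 0.24, 95% interval -0.53 to 0.60, adjusted p = 0.93 from limma). The ratio of Sparc to Sparcl1 was 7.45, 8.76 and 7.60 at P5 and 4.21, 6.17 and 7.34 at P30, so the ages were separated narrowly (exact p of 0.1, again the lowest reachable).

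Fn1 (chromosome 1, 71632094 to 71699774, minus strand) had an FPKM of 320.3, 323 and 305 at P5 and 195, 220.1 and 119.99 at P30. The P5 isolations agreed to within 1.06-fold, whereas those of P30 differed by 1.83-fold, and the ages did not overlap. The difference missed the adjusted p (log2 difference -0.87, SE 0.21, 95% interval -1.36 to -0.37, adjusted p = 0.017 from limma), although without P30 replicate 3, its lowest isolation, the log2 difference was -0.61 with an adjusted p of 0.0052 from limma. P30 replicate 2 was the highest P30 isolation for 7 of the 10 genes, Sparc, Sparcl1 and Fn1 included, and P30 replicate 3 was the lowest for 7. The share of all genes with this order was not computed. Replicate 2 also stood higher over genes in general. Its scale factor by the median of ratios was 1.04, against 0.949 in P30 replicate 1 and 0.942 in P30 replicate 3. Across the P30 isolations the pericyte markers summed to 1841, 6228 and 3819 and the fibroblast markers to 1782, 4490 and 2387, so that replicate 2 was the highest there too. The part of those cells in the spread of Sparc, Sparcl1 and Fn1 was not tested.

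Of the laminin receptors, Bcam was called higher at P30 and Dag1 did not pass the test. Bcam (chromosome 7, 20341480 to 20356365, minus strand) had an FPKM of 452, 427 and 317 at P5 and 949, 878 and 897 at P30. The lowest P30 isolation was 426 FPKM above the highest P5 isolation, and the log2 difference was 1.20 (SE 0.14, 95% interval 0.87 to 1.54, adjusted p = 0.0010 from limma). Bcam varied by 1.08-fold among the P30 isolations. The summed RPE markers, also higher at P30, ran from 3968 in P30 replicate 1 to 510 in P30 replicate 3, and their part in the Bcam difference was not tested. Lama5, which encodes the laminin chain that BCAM binds, had 317, 303 and 248 at P5 and 389, 347 and 348 at P30. Its isolations were separated by age but the difference did not pass the test (log2 difference 0.33, SE 0.12, adjusted p = 0.066 from limma). Dag1 (chromosome 9, 108108286 to 108166255, minus strand) had 272, 247 and 219 at P5 and 260.02, 325 and 259 at P30. The ages overlapped, and the 95% interval of its log2 difference ran from -0.12 to 0.50 around 0.19 (adjusted p = 0.28 from limma). Without P30 replicate 2 or P5 replicate 3 the value for Dag1 was 0.08 and 0.11.

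These changes rearranged the order of the levels. At P5 the order by mean FPKM was Sparc, Col15a1, Hspg2, Col18a1, Sparcl1, Nid1, Agrn, Bcam, Fn1 and Dag1, in which Col18a1 and Sparcl1, Sparcl1 and Nid1, and Bcam and Fn1 overlapped between neighbours. At P30 it was Sparc, Sparcl1, Hspg2, Bcam, Col15a1, Nid1, Agrn, Col18a1, Dag1 and Fn1, in which Sparcl1 and Hspg2, Bcam and Col15a1, Agrn and Col18a1, and Col18a1 and Dag1 overlapped. Col18a1 went from the 4th to the 8th place and Bcam from the 8th to the 4th. Even the lowest value of the 10 genes, that of Fn1 in P30 replicate 3, was above 86.9% of all genes in that isolation. That share counts the 36.4% of genes that were at 0 there.

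The 10 genes summed to an FPKM of 18044, 17939.7 and 16452 at P5 and 11560.2, 14916 and 10368.5 at P30, which was 1.19% ± 0.0405 (SD, n = 3) and 0.742% ± 0.105 (SD, n = 3) of the FPKM of all genes. Sparc alone made up between 48.8% and 50.8% of the sum at P5 and between 48.5% and 59.0% at P30. The other 9 genes together went from 8770.4 ± 304 to 5657 ± 656. Within the sum, Col18a1 went from 7.41% ± 1.17 to 2.56% ± 0.666 and Col15a1 from 11.9% ± 1.75 to 6.84% ± 0.761, while Bcam went from 2.27% ± 0.306 to 7.58% ± 1.48. The share of Hspg2 was 9.41% ± 0.162 at P5 and 8.70% ± 1.82 at P30, a difference smaller than the SD at P30.

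**Figure D3:**
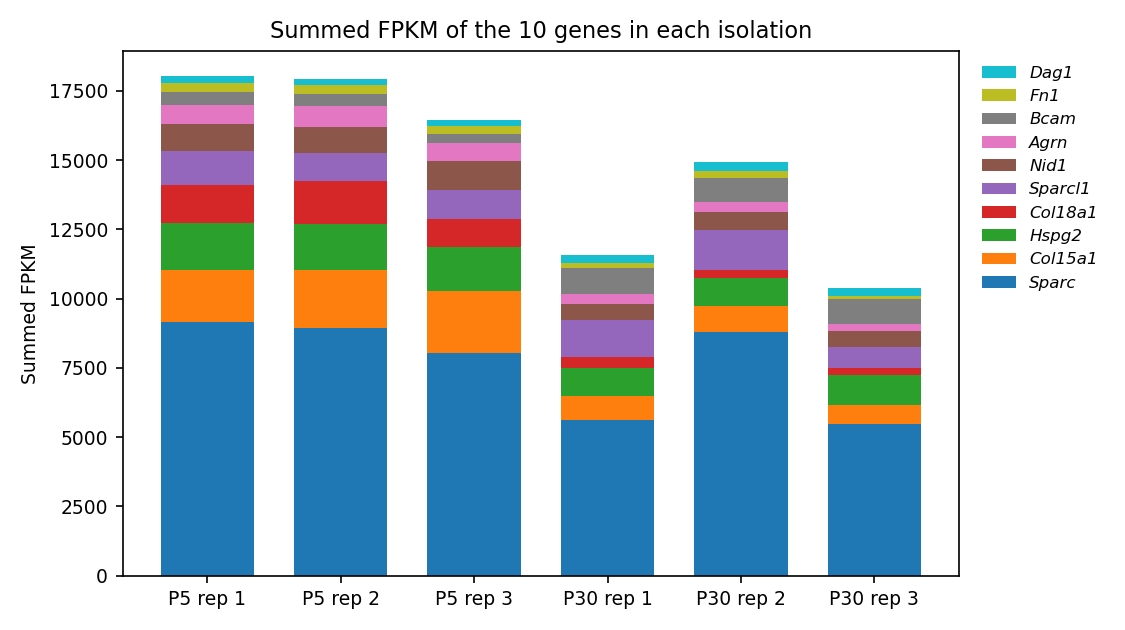
Summed FPKM of the 10 genes in each isolation, stacked by gene with Sparc at the bottom. The sum is lower in each P30 isolation than in each P5 isolation, P30 replicate 2 is the highest of the P30 isolations and holds the most Sparc among them, and the Bcam segment is taller at P30 while that of Col18a1 is shorter.

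The scale set between isolations moved several of these values. The authors scaled the FPKM to the upper quartile of each isolation. Scaling by the median of ratios instead moved the median log2 difference of all genes tested from -0.10 to -0.01. Col18a1, Col15a1 and Bcam were still called, and Agrn was just under 2-fold in mean FPKM + 1 (log2 difference -1.01). Dividing by the geometric mean of the 10 EC markers, which were on balance higher at P30, moved that median to -0.52. The log2 difference on that scale was -1.09 for Hspg2, -1.13 for Nid1 and -1.29 for Fn1, all then called, and -0.86 for Sparc. That of Bcam was 0.77, which still passed the adjusted p (0.0028 from limma) but not the 2-fold limit. The sign of Dag1 changed on that scale, and that of Sparcl1 changed both there and with quantile normalization.

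**Figure D4:**
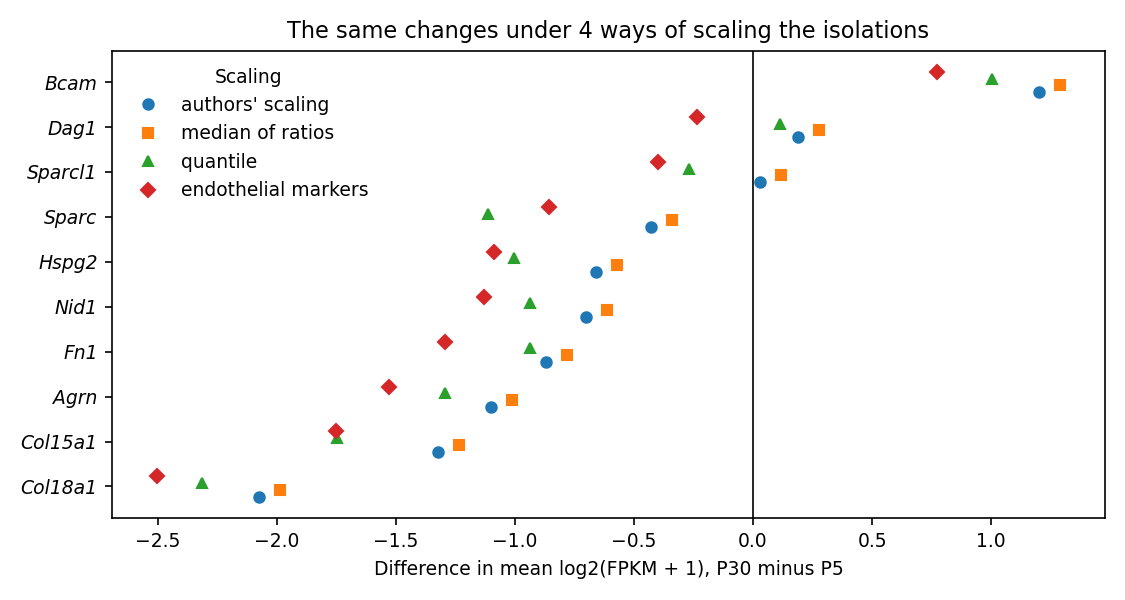
Difference in mean log2(FPKM + 1), P30 minus P5, of each gene under the scaling of the authors, median of ratios, quantile normalization and division by EC markers. Col18a1, Col15a1, Agrn, Fn1, Nid1, Hspg2 and Sparc are below 0 and Bcam above 0 under all 4, and Dag1 and Sparcl1 fall on both sides of 0.

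A list of partners held 4 laminin chains (Lama4, Lama5, Lamb1 and Lamc1) and both chains of the common type IV collagen (Col4a1 and Col4a2). Lrp4 and Musk, of the agrin receptor complex, were also listed, and Musk was too low to be tested. The list does not hold every laminin chain, and Lamb2, which was higher at P30, is described with the profiles closest to Bcam. Of the 7 tested, 6 passed as lower at P30 (10.7% of all genes tested) and 0 as higher (8.51%), with a median log2 difference of -1.28. At an unadjusted p under 0.05 from limma, 6 were lower and 1, Lama5, was higher. Lamb1 (log2 difference -1.51), Lama4 (-1.45), Lrp4, an agrin receptor (-1.37), Col4a1 (-1.28) and Lamc1 (-1.04) were called, and Col4a2 passed the adjusted p at -0.93. Among 17 other tested components of basement membranes, 2 were called in each direction and the median was -0.09. Of all genes tested, 5.82% were called higher at P5 and 5.89% higher at P30. At an unadjusted p under 0.05 from limma, 4 of the 17 were lower and 6 higher at P30. Pxdn (peroxidasin, which crosslinks type IV collagen) was at 379 ± 2.10 FPKM (SD, n = 3) at P5 and 131 ± 32.1 at P30 and, with Nid2, was lower. Tinagl1 (157 ± 11.8 at P5 and 681 ± 25.9 at P30) and Ntn4 (netrin-4, which binds laminin, 17.6, 14.7 and 12.7 at P5 and 92.6, 153 and 194 at P30) were higher.

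Enzymes that build or trim the heparan sulfate chains carried by perlecan, agrin and collagen XVIII were called in both directions. Of 21 tested, 1 was called higher at P5 and 2 higher at P30, shares near those of all genes tested (5.82% and 5.89%), with a median log2 difference of -0.06. The extracellular sulfatases moved in opposite directions, Sulf2 being at 124, 143 and 177 at P5 and at 76.9, 69.3 and 56.9 at P30 (log2 difference -1.11, adjusted p = 0.0027 from limma). Sulf1 was at 37.6, 32.9 and 36.3 at P5 and at 93.3, 109 and 61.1 at P30 (log2 difference 1.24, adjusted p = 0.0045 from limma). Hs3st3a1, a sulfotransferase, was higher at P30 (log2 difference 2.33, adjusted p = 0.00096 from limma) from a low level of 4.22 ± 0.438 FPKM at P5. Of 9 tested proteoglycans of the cell surface, Gpc2 was called higher at P5 (log2 difference -2.04) and Sdc4 higher at P30 (1.42). Of all genes tested, 5.82% and 5.89% were called in these directions. Sdc3 also passed as higher at P30, under 2-fold (log2 difference 0.69, adjusted p = 0.0063 from limma). At an unadjusted p under 0.05 from limma, 1 was lower and 4 were higher at P30, and the median of the 9 was 0.71. As above, the share of all genes at that unadjusted cut was not computed but is large.

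Other relatives and receptors were measured as well. Of 5 tested members of the SPARC family besides Sparc and Sparcl1, only Fstl1 was called, and it was lower at P30 (1027 ± 47.0 FPKM at P5 and 387 ± 106 at P30, log2 difference -1.44, adjusted p = 0.0012 from limma), while the median of the 5 was 2.02. The other 4, Spock1, Spock2, Smoc1 and Smoc2, did not pass (0 higher at P30 at the adjusted p from limma, 3 at an unadjusted p under 0.05), with log2 differences from 1.61 to 2.59. Both ends of that range come from low or uneven levels. Spock1 (2.59) was at 0.7, 0 and 0 FPKM at P5 and 10.6, 7.46 and 2.8 at P30. Smoc2 (1.61) was at 1.54, 1.36 and 11.3 at P5 and 6.23, 5.82 and 41.7 at P30. Smoc1 and Smoc2 also stand among the 17 other components. Of 6 fibronectin receptor subunits, Itgb3 was called higher at P30 (log2 difference 2.04, adjusted p = 0.0074 from limma), from a low level of 4.81 ± 1.90 FPKM at P5. Itga5 and Itgb1 passed as lower at P30 with log2 differences of -0.91 and -0.51. The median of the 6 was -0.71, and at an unadjusted p under 0.05 from limma 4 were lower and 1 higher at P30. Of 9 tested genes of the dystroglycan complex 0 were called (2 were higher at P30 at an unadjusted p under 0.05 from limma), and Sspn (sarcospan) passed as higher at P30 with a log2 difference of 0.98, under 2-fold. Utrn (utrophin), the highest of these genes by mean FPKM, had a log2 difference of 0.37 (adjusted p = 0.10 from limma). Of 14 tested genes for the glycosylation of dystroglycan 0 passed in limma (3 were lower and 1 higher at P30 at an unadjusted p under 0.05), and the highest, Dpm3, had a log2 difference of 0.39 (adjusted p = 0.16 from limma). None of the counts at an unadjusted p has the share of all genes beside it, which was not computed but is large.

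**Figure D5:**
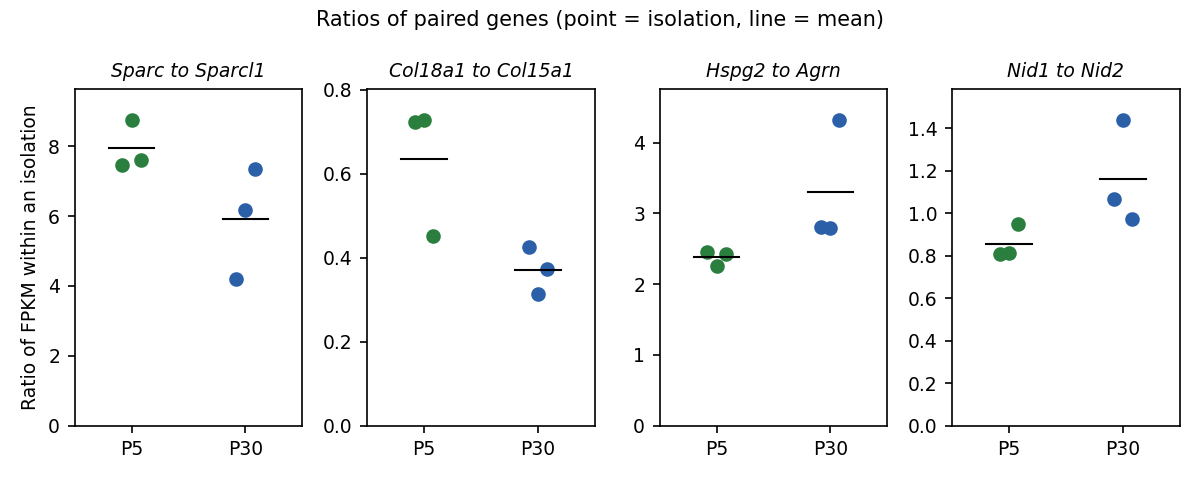
Ratios of FPKM within each isolation for 4 pairs of genes, with the mean of 3 isolations per age as a line. The ratios of Sparc to Sparcl1 and Col18a1 to Col15a1 are lower at P30 and those of Hspg2 to Agrn and Nid1 to Nid2 higher, with no overlap between ages and narrow gaps for every pair except Hspg2 to Agrn. How often the ratios of other gene pairs do not overlap was not computed. Of single genes tested, 33.0% lay wholly higher at P5 and 22.0% wholly higher at P30.

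The genes whose profile over the 6 isolations was closest to that of each called gene were found from the root-mean-square difference of log2(FPKM + 1), each profile minus its own mean. For Bcam they were Lamb2, Spryd3 and Tex264, at differences of 0.05, 0.05 and 0.07 on the log2 scale. Lamb2 (298 ± 54.0 FPKM at P5 and 717 ± 7.35 at P30) encodes the laminin beta2 chain. For Col15a1 they were Mpp1, Lcp1 and Nup155 (0.06 each), for Agrn Lig4, Rpgrip1l and Vangl2 (0.07 to 0.08), and for Col18a1 Sash3, Cd200r1 and Cd86 (0.15 to 0.20). The last 3 had far lower levels than Col18a1, at 10.2, 8.94 and 23.5 FPKM at P5, and the likeness is one of shape only. Sash3, Cd200r1, Cd86 and Lcp1 are known as genes of leukocytes, as is Ptprc, which was also lower at P30, and the part of leukocytes in the differences of Col18a1 and Col15a1 was not tested.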

How the data were processed

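RNA of sorted choroid ECs was sequenced by the authors on a HiSeq2000. Per the labels and the methods, reads from CASAVA 1.8.2 were checked with FastQC and aligned to mm9 with TopHat, and the deposited FPKM values were calculated by the authors in Cufflinks (GC correction, scaling to the upper quartile) as 1 value per gene symbol and isolation. The gene annotation is not given in the sources used here. Read counts were not used here, and low FPKM values gave no clear step of single reads, so depth is unknown and no interval for counting error is given.

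Samples were grouped by their labels. From the deposited values, log2(FPKM + 1) was fitted with limma 3.58.1 (R 4.3.3, empirical Bayes with a mean-variance trend, no block) for genes whose mean reached 5 FPKM at either age. The fit was tested on simulated data. Ratios were compared with exact permutation tests (scipy 1.17.1). Gene positions are from GENCODE for mm9, and promoter windows from RefSeq for GRCm38.p6, with no conversion between builds. Every gene of the set is described, and of each other list its called genes or, with none called, its highest gene are named. Lama5, Col4a2, Sdc3, Sspn, Itga5, Itgb1, Cdh5, Ptprc, Csf1r, Hbb-b1, S100b, the SPARC family members not called and the marker genes at 0 were named after their values were seen. The members and lists were chosen with earlier results of these data known. The labels number the isolations 1 to 3 at each age, but deviations from the age means of same-numbered isolations correlated at -0.06, -0.09 and -0.03, so the numbers were not taken as pairs. The isolations are separate pools of animals. Of the marker lists examined, 1 is not reported here.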

Additional observations from a re-analysis of the deposited data

How the results depend on the processing

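Main counts were 3 of the 10 genes called higher at P5 and 1 at P30. With no filter on low FPKM these were 1 (Col18a1) and 0, over 22026 genes tested. With quantile normalization they were 5 and 0 (Hspg2 and Sparc added, Bcam just under 2-fold), with EC marker scaling 6 and 0, and with no limit on the fold 5 higher at P5. Leaving out 1 isolation gave 2 to 3 higher at P5, Agrn being the gene lost, and 1 higher at P30 each time. Over all genes, 726 were called higher at P5 and 735 at P30. These became 296 and 242 with no filter, 1970 and 472 with EC marker scaling, and 624 and 869 with median of ratios scaling. With quantile normalization they were 709 and 781. With no limit on the fold 1338 were higher at P5, and at an adjusted p under 0.05 from limma 1130 were higher at P30. Without P5 replicate 1, 2 or 3 the counts over all genes were 427, 291 and 297 at P5 and 519, 404 and 396 at P30. The log2 difference reversed for Dag1 with EC marker scaling (-0.24) and for Sparcl1 with quantile normalization (-0.27) and EC marker scaling (-0.40), and ran from -0.14 to 0.33 for Sparcl1 as 1 isolation was left out. The cause of these shifts was not tested.

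With the replicate number as a block, 3 genes were called higher at P5 and 1 at P30, as without it, and over all genes 524 and 585. The highest adjusted p with the block among the genes that had passed was 0.00999 (Hspg2, limma). With no counts the depth is unknown, and with 3 isolations per age no permutation test can go below 0.1. The 4 ratios kept their direction with each isolation left out.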
